A study of Solanum lycopersicum with 4 samples.

Results

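The 7 genes described here encode the core of gibberellin perception and response in tomato (Solanum lycopersicum): the receptor genes GID1a (Solyc01g098390), GID1b1 (Solyc09g074270) and GID1b2 (Solyc06g008870), the DELLA repressor gene PROCERA (Solyc11g011260), the F-box gene SLY1 (Solyc04g078390) and the MYB transcription factor genes GAMYB1 (Solyc01g009070) and GAMYB2 (Solyc06g073640). They were picked by gene ID from published names and by no cutoff on measured values, though with earlier results of these data known. They make up 7 of the 33976 transcripts in the deposited tables, which hold 1 transcript per gene ID. RNA sequencing covered 4 libraries from floral apices and closed flower buds. Of these, 2 came from plants labelled 156OE, which are MT plants overexpressing the microRNA miR156, and 2 from MT plants. MT, the background of both groups, usually stands for Micro-Tom, a dwarf cultivar. No promoter of the miR156 transgene, number of transgenic lines or plant age is given in the labels. Replicates are described as RNA replicates, with nothing on whether separate plants were used, and p-values reflect the spread between these samples alone, which may be technical. The study asks how gibberellin and the module of miR156 and its SBP-box targets act together on floral meristems and fruit patterning.

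Gibberellin is a plant hormone that promotes growth by removing repressors. It binds a soluble receptor of the GID1 type, and the loaded receptor grips a DELLA protein. An F-box protein of the SLY1/GID2 type then recruits a ubiquitin ligase, and the DELLA protein is degraded. DELLA proteins restrain growth through the transcription factors they bind, and PROCERA is the tomato DELLA whose loss gives the tall, gibberellin-like procera phenotype. GAMYB proteins are MYB activators first described in cereal aleurone as mediators of the gibberellin response. In Arabidopsis and rice they act in anthers, and their transcripts are targets of the microRNA miR159. Because DELLA abundance is set largely by degradation, transcript levels describe the supply of these components and not the activity of the pathway.

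The 156OE libraries held 8440384 and 1685657 assigned reads and the MT libraries 11203505 and 9369713, so 156OE replicate 2 was the shallowest. Replicate counts differed beyond sampling noise (chi-square per degree of freedom 21.1 for the 156OE pair and 4.12 for the MT pair). Of 5 SBP-box IDs, which belong to the family that miR156 targets, 4 were lower in both 156OE libraries than in both MT libraries, as were 23.8% of all genes tested. The 5 IDs had a median log2 change of -1.70, and edgeR called 0 of them over all genes (lowest adjusted p = 0.132). At an unadjusted p under 0.05 edgeR listed 4 of the 5, beside 11.4% of all genes tested. The meristem genes WUS, TKN2 and FA were detected in every library. Their summed levels were 210.9 and 149.9 TPM in 156OE and 243 and 240.9 TPM in MT. On the TPM scale the median log2 change of all genes tested was itself at -0.17 (limma on log2(TPM + 1)). On the scale of the edgeR fit FA was lower in both 156OE libraries than in both MT libraries (log2 change -0.92, edgeR adjusted p = 0.295). On that scale TKN2 was higher in both (log2 change 0.28, edgeR adjusted p = 0.525) and WUS overlapped. In TPM it was TKN2 that overlapped, at 122.9 and 90.6 TPM in 156OE and 88.9 and 109.5 TPM in MT. WUS had 16.41 and 16.35 TPM in 156OE, against 22.59 and 16.59 TPM in MT. Markers of floral organs separated the 156OE replicates. The petal and stamen genes TAP3 and TM6 summed to 110.4 and 47.0 TPM in 156OE replicates 1 and 2, against 65.8 and 69.4 TPM in MT. Within this sum TAP3 had 41.9 and 3.70 TPM in 156OE, from 330 and 6 reads, against 14.6 and 19.9 TPM in MT. TM6 had 68.5 and 43.3 TPM in 156OE, against 51.3 and 49.5 TPM in MT. On the scale of the edgeR fit TM6 was higher in both 156OE libraries (log2 change 0.34, edgeR adjusted p = 0.504). The stamen and carpel genes TAG1 and TAGL1 summed to 27.8 and 4.19 TPM in 156OE replicates 1 and 2, from 225 and 7 reads, against 14.3 and 15.5 TPM in MT. The leaf gene RBCS3 stood at 354 and 692 TPM in 156OE and at 213 and 209 TPM in MT. Of the pollen genes, LAT52 had no read in 3 of the 4 libraries, and with LAT56 it summed to 1.22 and 0.848 TPM in 156OE, against 4.71 and 3.74 TPM in MT.

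All 7 genes were expressed in every library and passed the filter on low counts. Per length, PROCERA, SLY1 and GID1b1 were the most abundant, GID1a and GID1b2 lay below them, and the GAMYB genes were the lowest. PROCERA was at 133.5 and 92.8 TPM in the 156OE libraries, replicates 1 and 2, and at 129 and 152 TPM in the MT libraries. TPM values are transcript abundances scaled by effective length to 1000000 per library, and they allow levels of different genes to be compared. SLY1 was at 136 and 161.5 TPM in 156OE and at 121 and 75.4 TPM in MT, and GID1b1 at 74.0 and 145 TPM in 156OE and at 86.2 and 75.6 TPM in MT. These 3 genes lay above at least 88.7% of the genes with a TPM above 0 in each library.

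GID1a followed at 44.7 and 39.6 TPM in 156OE and 47.0 and 48.4 TPM in MT, and GID1b2 at 13.2 and 13.7 TPM in 156OE and 13.9 and 14.2 TPM in MT. GID1b2 thus sat near the middle of the expressed genes, above 48.6 to 50.5% of them. GAMYB1 was at 8.51 and 5.76 TPM in 156OE and 7.57 and 8.12 TPM in MT, and GAMYB2 at 4.76 and 6.56 TPM in 156OE and 5.96 and 4.99 TPM in MT.

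The order of mean levels was SLY1, PROCERA, GID1b1, GID1a, GID1b2, GAMYB1 and GAMYB2 in 156OE, and the same in MT except that PROCERA stood before SLY1. In 156OE the TPM ranges of PROCERA and GID1b1 overlapped, as did those of GAMYB1 and GAMYB2, so these neighbours did not differ beyond their spread. In MT the ranges of SLY1 and GID1b1 overlapped. The other neighbours in each order had separate ranges, the widest step being between GID1a and GID1b2, at 3.14 times in 156OE and 3.40 times in MT. The ranges of SLY1 and PROCERA in 156OE were barely apart, with 135.7 TPM for SLY1 and 133.5 TPM for PROCERA in replicate 1. In MT replicate 1 PROCERA was at 129.4 TPM and SLY1 at 121.4 TPM, and in MT replicate 2 SLY1 was at 75.4 TPM. The order of SLY1 and PROCERA is thus not firm in either group.

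**Figure D1:**
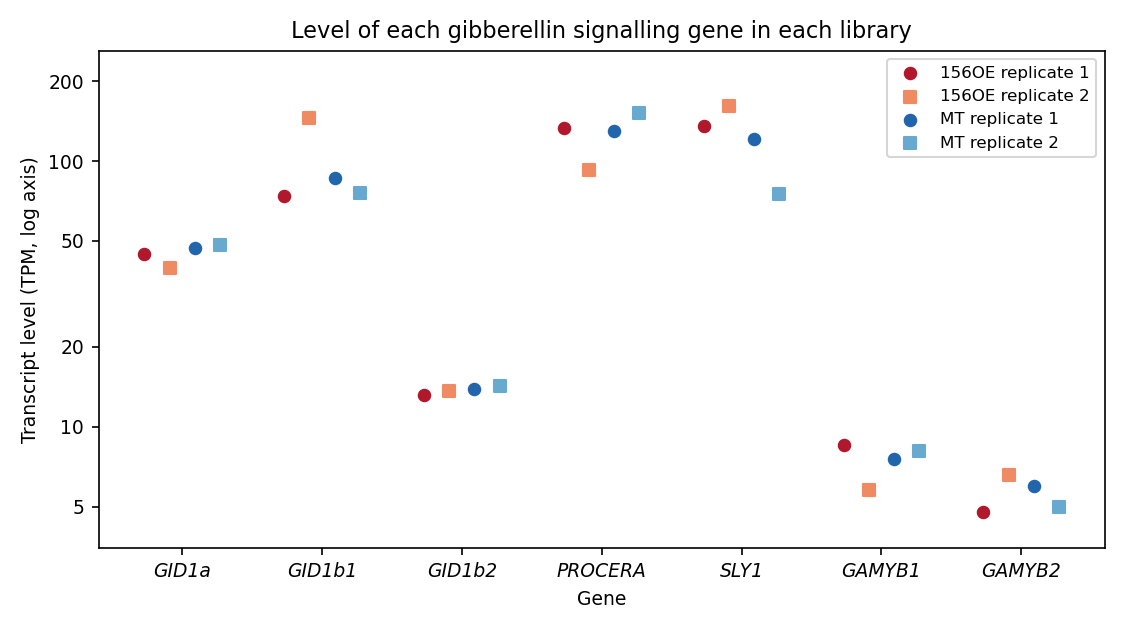
Transcript level in TPM (log axis) of each gene in each of the 4 libraries; every point is 1 library. PROCERA, SLY1 and GID1b1 lie at the top and the GAMYB genes at the bottom, GID1b1 stands apart in 156OE replicate 2 at 145 TPM, and SLY1 is lowest in MT replicate 2 at 75.4 TPM.

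In the comparison of 156OE with MT, 0 of the 7 genes passed an adjusted p of 0.05 in edgeR's quasi-likelihood test. Of all 18385 genes tested 0.00544% passed, so a gene that did not pass was not shown to be unchanged. DESeq2 also called 0 of the 7, against 1.01% of all genes. At an unadjusted p under 0.05 edgeR listed 1 of the 7, SLY1, and 11.4% of all genes. The median log2 change of the 7 genes was 0.10, beside 0.01 over all genes tested, and the median size of the change was 0.14, beside 0.21. For levels between groups, counts are given below as CPM (reads per 1000000 after TMM scaling, the scale of the fit). On this scale the libraries of the groups did not overlap for 1 of the 7 genes, again SLY1, higher in 156OE. Among all genes tested 46.5% did not overlap, and in 22.8% the 156OE libraries were higher. In these bulk samples fewer cells of a type and less RNA per cell cannot be told apart.

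Among the receptor genes, GID1a (Solyc01g098390) was nearly level across the series. It had 85.0 and 87.6 CPM in 156OE, from 736 and 134 reads, and 85.2 and 86.9 CPM in MT, from 986 and 839 reads. All 4 libraries lay within 1.03 times of each other, and the values of the groups interleaved. The coefficient of variation of GID1a over the 4 libraries was 1.49%, smaller than in all but 0.255% of tested genes with a read in every library, whose median was 15.7%. The exact 95% Poisson interval of 156OE replicate 2, which covers counting error only, was 73.4 to 103.7 CPM. It was wider than the spread of the 4 values, so their closeness does not measure how stable the gene was. Its log2 change was 0.0022 ± 0.11 (SE; 95% interval of the fold 0.832 to 1.21; edgeR adjusted p = 0.9998). On the TPM scale it was -0.18, where the median of all genes tested was itself at -0.17.

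GID1b1 (Solyc09g074270), which belongs with GID1b2 to the B-type GID1 receptors, was high in a single 156OE library. It had 100.6 and 230.1 CPM in 156OE replicates 1 and 2, from 872 and 352 reads, and 112 and 97.3 CPM in MT, from 1297 and 940 reads. 156OE replicate 1 lay between the MT libraries, while replicate 2 stood above all others, at 2.2 times the MT mean. The exact Poisson interval of replicate 2, 207 to 255 CPM, was clear of that of replicate 1, 94.1 to 108 CPM; these intervals cover counting error only.

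Over both replicates the log2 change of GID1b1 was 0.63 ± 0.39 (SE; 95% interval of the fold 0.780 to 3.08; edgeR adjusted p = 0.564). With 156OE replicate 1 left out the log2 change of GID1b1 was 1.13, and with 156OE replicate 2 left out it was -0.06, each from a single 156OE library. The difference between the 156OE replicates, 1.19 on the log2 scale, was larger than in 90.6% of genes. The library with the high value was also the shallowest, with the lowest floral organ marker sums in TPM and the highest RBCS3 level. The part of depth and of these markers in the GID1b1 value was not tested.

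GID1b2 (Solyc06g008870) was the scarcest receptor transcript per length and differed little between libraries. It had 17.3 and 20.9 CPM in 156OE, from 150 and 32 reads, and 17.5 and 17.6 CPM in MT, from 202 and 170 reads. The Poisson interval of 156OE replicate 2, from 14.3 to 29.5 CPM, contained the values of the other 3 libraries. The log2 change was 0.10 ± 0.18 (SE; 95% interval of the fold 0.780 to 1.47; edgeR adjusted p = 0.975).

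**Figure D2:**
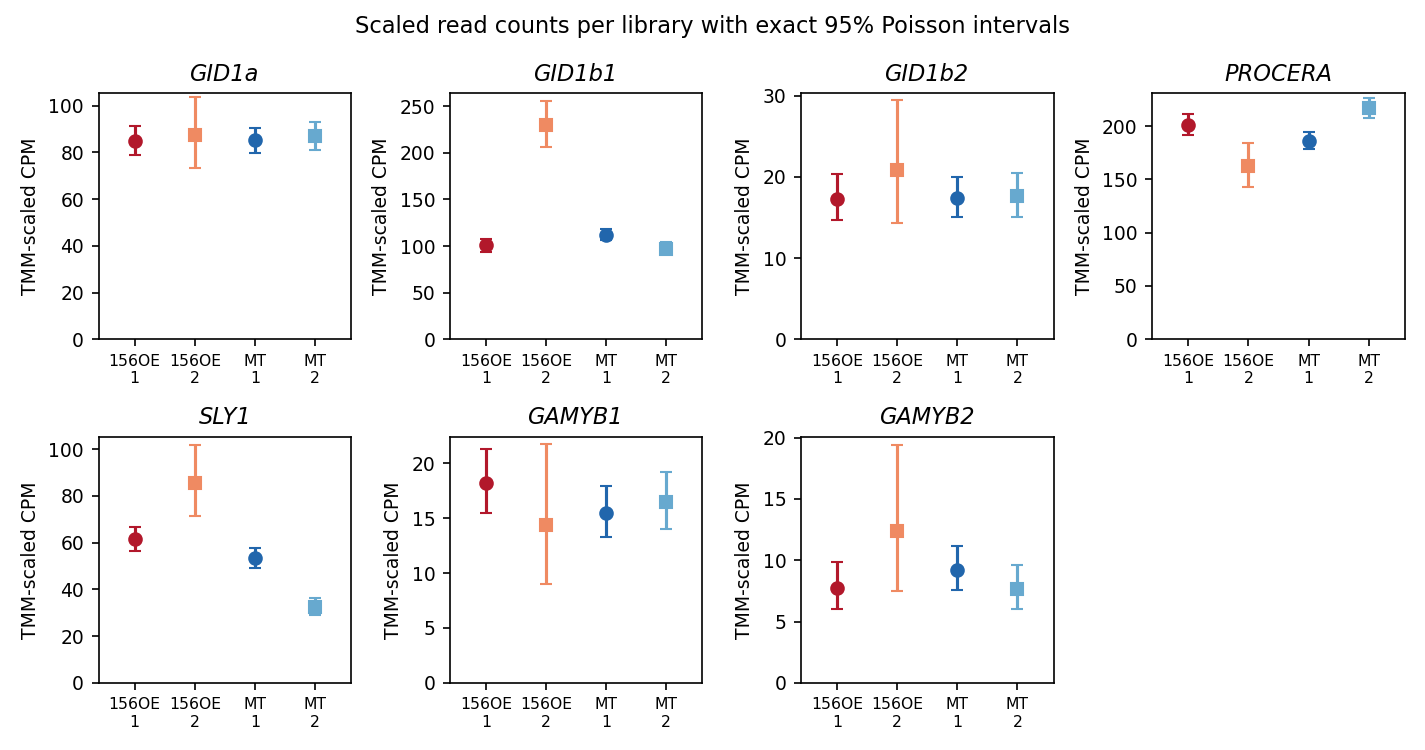
TMM-scaled CPM of each gene in each library, with exact 95% Poisson intervals that cover counting error only; each panel has its own axis, starting at 0. GID1a is level at 85.0 to 87.6 CPM, GID1b1 is high in 156OE replicate 2 at 230.1 CPM, and the intervals of 156OE replicate 2 are the widest of each panel.

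PROCERA (Solyc11g011260), the DELLA gene, had the highest TPM of the 7 in both MT libraries. It had 201 and 163 CPM in 156OE, from 1744 and 249 reads, and 186 and 217 CPM in MT, from 2157 and 2096 reads. 156OE replicate 1 lay between the MT libraries and replicate 2 below both, at 0.807 times the MT mean. The log2 change was -0.14 ± 0.16 (SE; 95% interval of the fold 0.688 to 1.19; edgeR adjusted p = 0.743). Leaving out 156OE replicate 1 or 2 gave -0.31 and -0.0031.

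SLY1 (Solyc04g078390), which encodes the F-box subunit that marks DELLA proteins for degradation, had the largest difference of the 7 genes. It had 61.4 and 85.6 CPM in 156OE, from 532 and 131 reads, and 53.5 and 32.4 CPM in MT, from 619 and 313 reads. Both 156OE libraries lay above both MT libraries. The gap between the nearest libraries was small: the Poisson interval of 156OE replicate 1, 56.3 to 66.9 CPM, overlapped that of MT replicate 1, 49.3 to 57.9 CPM.

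The log2 change of SLY1 was 0.75 ± 0.29 (SE; 95% interval of the log2 change 0.00025 to 1.499), with an unadjusted p of 0.04995 and an adjusted p of 0.439 in edgeR. The size of the change exceeded that of 89.8% of genes tested. The difference between the MT replicates, -0.72 for replicate 2 against replicate 1, was of like size and exceeded that of 96.0% of genes. Leaving out MT replicate 1 or 2 gave log2 changes of 1.17 and 0.44. With 156OE replicate 1 left out SLY1 passed the threshold at 0.98 (edgeR adjusted p = 0.0426), and with 156OE replicate 2 left out its 0.51 did not (edgeR adjusted p = 0.217). In the fit without 156OE replicate 1, 2 of the 7 genes were called, SLY1 and GID1b1, both higher, where 10.6% of all genes were called in either direction and 8.16% in that direction. Without 156OE replicate 2, 0 of the 7 were called, against 5.73% of all genes. In each of these fits the lone 156OE library was assumed to vary like the MT pair.

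The GAMYB genes, whose names could not be checked against the RefSeq gene table used here, did not pass the test, and they had the lowest counts of the 7 in 156OE replicate 2. GAMYB1 (Solyc01g009070) had 18.2 and 14.4 CPM in 156OE, from 158 and 22 reads, and 15.5 and 16.5 CPM in MT, from 179 and 159 reads. The MT libraries lay between the 156OE libraries. The log2 change was 0.07 ± 0.19 (SE; 95% interval of the fold 0.744 to 1.48; edgeR adjusted p = 0.937).

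GAMYB2 (Solyc06g073640) had 7.73 and 12.4 CPM in 156OE, from 67 and 19 reads, and 9.24 and 7.66 CPM in MT, from 107 and 74 reads. 156OE replicate 1 lay within the MT pair and replicate 2 above it. Its Poisson interval in replicate 2, 7.48 to 19.4 CPM, contained the values of the other 3 libraries. The log2 change was 0.16 ± 0.31 (SE; 95% interval of the fold 0.642 to 1.94; edgeR adjusted p = 0.885). For both GAMYB genes a difference between the genotypes inside these intervals was not excluded, and the intervals are not limits of detection.

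**Figure D3:**
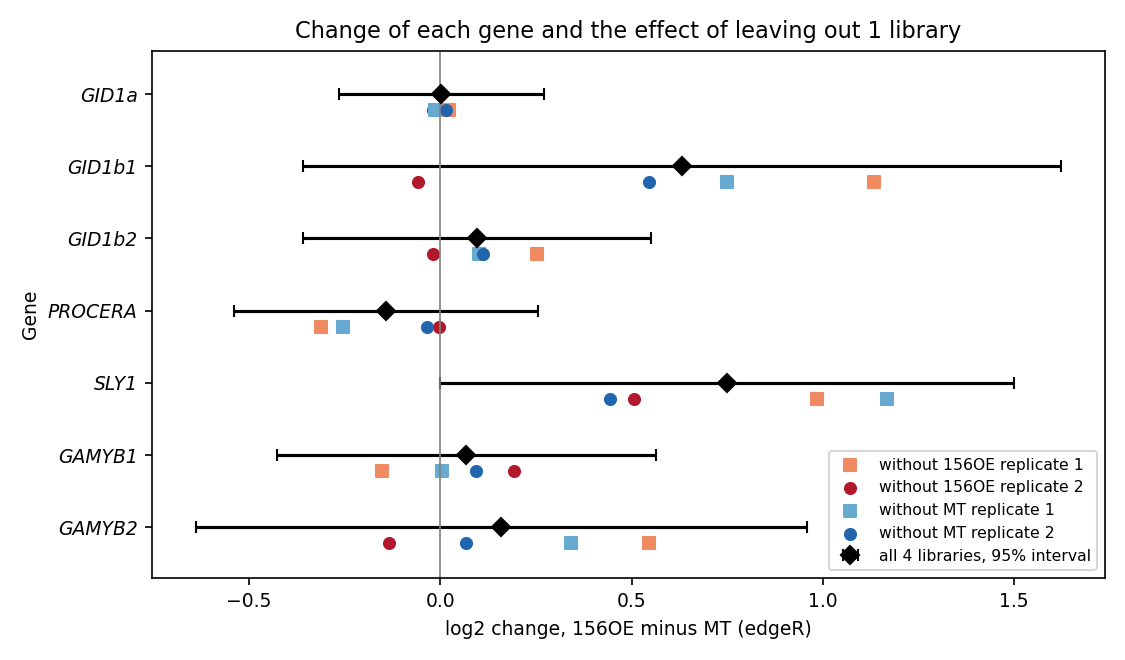
Log2 change of each gene, 156OE minus MT (edgeR), with all 4 libraries (diamonds, 95% interval) and with each library left out in turn (squares and circles below the diamonds). GID1b1 lies at 1.13 without 156OE replicate 1 and at -0.06 without 156OE replicate 2, SLY1 stays above 0 between 0.44 and 1.17, and GID1a lies between -0.019 and 0.024.

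Ratios within a library do not depend on the scaling between libraries, and they describe the makeup of the pathway. GID1b1 made up 56.1 and 73.2% of the summed receptor TPM in 156OE and 58.6 and 54.8% in MT, GID1a 33.9 and 19.9% in 156OE and 32.0 and 35.0% in MT, and GID1b2 9.99 and 6.89% in 156OE and 9.43 and 10.3% in MT. In 3 libraries the receptor pool thus had nearly the same makeup. 156OE replicate 2 departed from it, and its receptor sum was 199 TPM, where 156OE replicate 1 had 132 TPM and the MT libraries 147 and 138 TPM. In reads, the GID1b1 share in 156OE replicate 2 was 68.0% of 518 receptor reads (95% exact binomial interval 63.7 to 72.0%), and 49.6% of 1758 reads in replicate 1 (47.2 to 52.0%).

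PROCERA transcripts per receptor transcript stood at 1.01 and 0.467 in 156OE and at 0.880 and 1.10 in MT, or 0.740 ± 0.386 and 0.991 ± 0.157 on average (SD, n = 2 each). The groups overlapped, and 156OE replicate 2 was the lowest. SLY1 transcripts per PROCERA transcript stood at 1.02 and 1.74 in 156OE and at 0.938 and 0.495 in MT, with the 156OE libraries above the MT libraries. GAMYB1 made up 64.2 and 46.8% of the summed GAMYB TPM in 156OE and 56.0 and 62.0% in MT, and its 95% exact binomial interval in reads of 156OE replicate 2 was wide, 37.4 to 69.3% of 41 reads. These ratios are given as descriptions and were not tested; an exact permutation test of 2 libraries against 2 cannot give a p below 0.333, and no model was fitted to them.

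**Figure D4:**
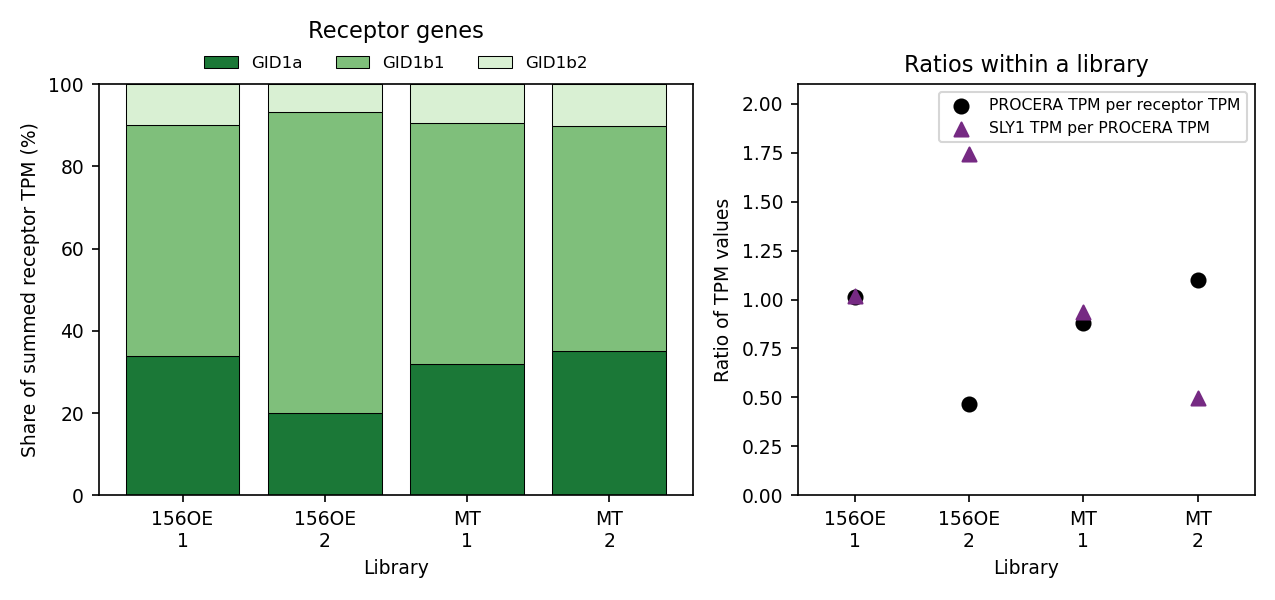
Left, share of each receptor gene in the summed receptor TPM of a library (bars, %); right, PROCERA TPM per receptor TPM (circles) and SLY1 TPM per PROCERA TPM (triangles). 156OE replicate 2 has the largest GID1b1 share, 73.2%, and the lowest PROCERA to receptor ratio, 0.467.

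Around these genes, a list of gibberellin synthesis and inactivation genes and a short list of signalling genes were read for context. Of 12 named synthesis and inactivation genes, 4 were tested, and 0 passed edgeR in either direction, where 0.00544% of all genes passed. At an unadjusted p under 0.05 edgeR listed 1 of the 4, beside 11.4% of all genes tested. The highest change among them was that of GA2ox4 (Solyc07g061720), a gibberellin-inactivating oxidase gene, at 36.01 and 5.23 CPM in 156OE and 6.57 and 5.49 CPM in MT (log2 change 1.94 ± 0.73, SE; edgeR adjusted p = 0.429). The high value belonged to 156OE replicate 1, where GID1b1 was not raised. GA2ox5 (Solyc07g061730) had the same library pattern, at 33.9 and 7.19 CPM in 156OE and 8.73 and 8.59 CPM in MT. Leaving out 156OE replicate 1 turned the log2 changes to -0.21 for GA2ox4 and -0.27 for GA2ox5. Leaving out 156OE replicate 2 gave 2.57 for GA2ox4 and 1.97 for GA2ox5, so the rise rested on a single 156OE library. That library, 156OE replicate 1, also had the highest floral organ marker sums in TPM. The part of these markers in the GA2ox4 and GA2ox5 values was not tested.

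The lowest change was that of the biosynthetic gene GA20ox2 (Solyc06g035530), at 17.0 and 13.1 CPM in 156OE and 16.8 and 15.0 CPM in MT. GA20ox1 (Solyc03g006880), which catalyses the same step, had 7.16 and 5.23 CPM in 156OE and 4.32 and 3.21 CPM in MT (edgeR adjusted p = 0.457). The other 8 genes did not pass the filter on low counts. Among them, GA3ox1 and GA3ox2, whose enzymes form the bioactive hormone, had 2 and 1 reads in 156OE replicate 1 and none in the other libraries, so their transcripts could not be compared at this depth.

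Of the signalling genes, GAST1 (Solyc02g089350), named as a gibberellin-stimulated transcript of tomato, had 15.9 and 21.6 CPM in 156OE, from 138 and 33 reads, and 7.60 and 6.73 CPM in MT, from 88 and 65 reads. Both 156OE libraries lay above both MT libraries. The log2 change was 1.34 ± 0.24 (SE; unadjusted p = 0.00238, edgeR adjusted p = 0.262), which did not pass over all genes; DESeq2 gave an adjusted p of 0.0849. With either 156OE library left out it was past the threshold, at 1.58 without replicate 1 and 1.15 without replicate 2 (edgeR adjusted p = 0.00594 and 0.00729), fits that share the MT libraries. It was not past the threshold without MT replicate 1 or 2, at 1.45 and 1.27 (edgeR adjusted p = 0.988 and 1), or in any alternative that kept all 4 libraries. SPY (Solyc09g010180), which encodes an O-linked sugar transferase that acts on DELLA proteins in Arabidopsis, had 171 and 180.4 CPM in 156OE and 184 and 199 CPM in MT. Its log2 change was -0.12 ± 0.11 (SE; edgeR adjusted p = 0.675).

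**Figure D5:**
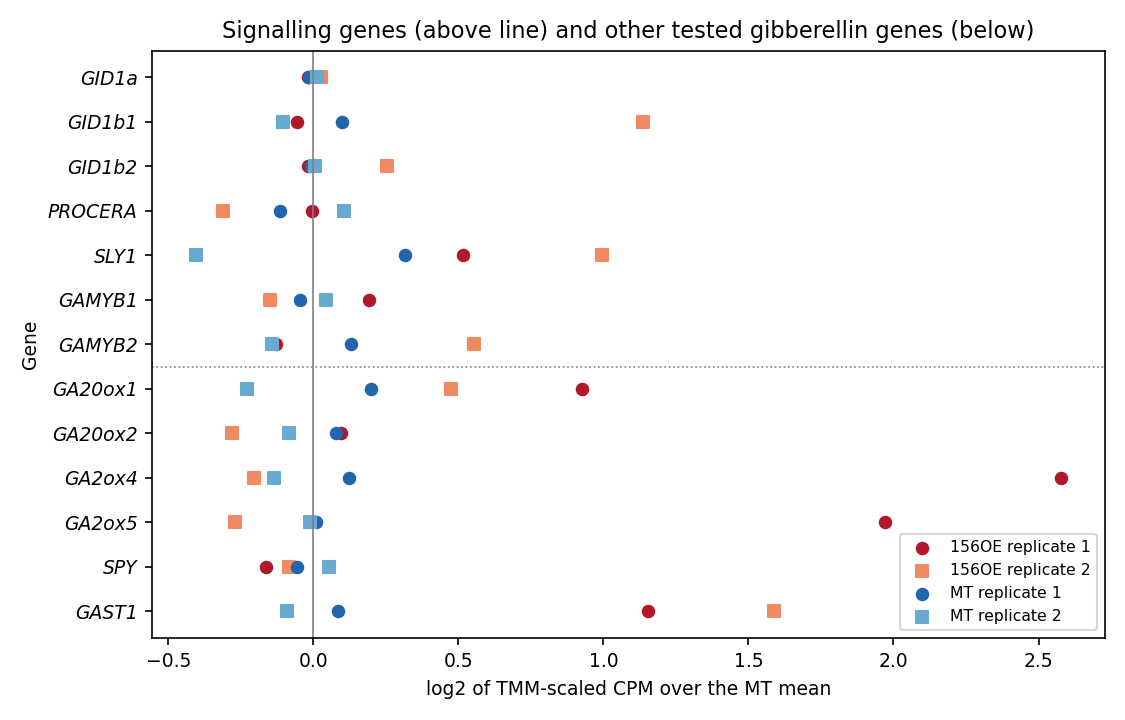
Log2 of each library's TMM-scaled CPM over the MT mean, for the 7 genes (above the dotted line) and the tested genes of gibberellin synthesis, inactivation and signalling (below it); every point is 1 library. GID1b1 departs in 156OE replicate 2, GA2ox4 and GA2ox5 in 156OE replicate 1, and GAST1 lies above MT in both 156OE libraries.

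Likeness between genes was measured as the root mean square distance of log2(CPM + 1) values, centred on the MT mean, over the 4 libraries. By construction, genes that differ little from the MT mean lie near each other, so a small distance does not show a shared pattern. Among the 20 other genes of the pathway, the nearest gene to 5 of the 7 had under 5 reads in all libraries together, so the measure carried no information for them. GID1b2 was nearest to GID1a, at a distance of 0.11, and GAMYB2 nearest to GID1b2, at 0.17. Restricted to tested genes, a restriction chosen after the values were seen, GID1a was nearest to SPY at 0.09, PROCERA to GAMYB1 at 0.13 and GAMYB1 to GA20ox2 at 0.11. GID1b1 and SLY1 had no near neighbour, the closest being GAMYB2 at 0.31 for GID1b1 and GID1b1 at 0.35 for SLY1.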

How the data were processed

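Per the submitters' processing notes, Salmon, HISAT2, Trimmomatic, SAMtools and Picard were used; their roles and versions, the build and the annotation were not given in the sources used here. Estimated counts and TPM values were deposited by the authors per transcript, with lengths and effective lengths. Estimated counts were rounded and tested with edgeR 4.0.16 in R 4.3.3 (two-sided quasi-likelihood F test with TMM scaling, filterByExpr and genotype as the only term, Benjamini-Hochberg over all 18385 genes tested), after the fit had been tested on simulated data. Salmon can divide reads between similar transcripts, so estimated counts of close paralogs are less certain. Poisson and binomial intervals (exact, 95%, SciPy 1.17.1) cover counting error only. Standard errors are the log2 change over the square root of F. For GID1b2 edgeR's p was bounded by a Poisson fit (0.835, against 0.612 unbounded). Alternatives included DESeq2 1.42.0 and limma 3.58.1 on log2(TPM + 1).

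The members and lists were chosen with earlier results of these data known. All 7 members were named, with pathway genes by ID; of the first list, the lowest and highest change and, chosen after their values were seen, GA2ox5, GA20ox1, GA3ox1 and GA3ox2. A symbol was used if RefSeq (assembly SLM_r2.1) placed it on the ID's chromosome, within 0.03 of its relative rank. Among members 5 of 7 passed; the GAMYB names could not be checked in the table used here and are less certain. Of the synthesis list 12 of 15 IDs and of the signalling list 2 of 6 passed; the rest were not used. Of the marker IDs, 2 of 4 petal and stamen genes passed, and the 2 tapetum genes did not.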

Additional observations from a re-analysis of the deposited data

How the results depend on the processing

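None of the 7 genes was called by the 8 alternatives of scaling, filter, tool, unit, length and replicate block, by the crossed block, or without MT replicate 1, MT replicate 2 or 156OE replicate 2; without 156OE replicate 1, 2 were. Over all genes 1 was called with all libraries, 85 with no low-count filter, 208 by DESeq2, and 0 with either limma fit or with the replicate block; leaving out 1 library gave 0 to 1998. The replicate numbers mark nothing shared in the labels, and deviations of same-numbered libraries correlated at -0.25 over 18385 genes; a crossed replicate block, chosen after seeing the data, called 0 genes and 0 of the 7. The log2 change of PROCERA stayed below 0 and that of SLY1 above 0 in all 13 alternatives, from -0.33 to -0.0031 and from 0.44 to 1.17. GID1a, at 0.0022, was -0.031 with upper quartile scaling, -0.013 with no filter, -0.0092 with DESeq2 and -0.00093 with effective-length offsets. With limma on log2(TPM + 1) and log2(TPM + 0.1) GID1a stood at -0.18 and -0.18, GID1b2 at -0.059 and -0.062 and GAMYB1 at -0.14 and -0.16, where the medians of all genes were -0.17 and -0.19. Leaving out 1 library gave -0.019 to 0.024 for GID1a, -0.059 to 1.13 for GID1b1, -0.019 to 0.25 for GID1b2, 0.44 to 1.17 for SLY1, -0.15 to 0.19 for GAMYB1, -0.13 to 0.55 for GAMYB2, -0.29 to 0.091 for GA20ox2, -0.21 to 2.57 for GA2ox4 and -0.27 to 1.97 for GA2ox5. Shares in estimated counts in place of TPM, which leaves out length by construction, were 41.4% for GID1a, 50.2% for GID1b1, 8.43% for GID1b2 and 65.4% for GAMYB1 in MT. GAST1 was 1.35 with the replicate block (adjusted p = 0.546), and 1.15 to 1.58 with 1 library left out. The cause of the other shifts was not tested.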

Other observations

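Among the gibberellin genes under the low-count filter, GA2ox3, a further inactivating oxidase gene chosen after its values were seen, had 4 and 25 reads in 156OE replicates 1 and 2 and 2 and 0 reads in MT replicates 1 and 2. The reads of 156OE replicate 2 correspond to 16.3 CPM, against 0.462 CPM in 156OE replicate 1. GA2ox3 was thus high in the library where GID1b1 was high, and GA2ox4 and GA2ox5 in the other 156OE library. The 156OE libraries also differed in depth, floral organ markers and RBCS3, and the part of these in the values was not tested. No test was made of GA2ox3, which the filter removed.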
